A study of Bos grunniens and Bos grunniens x Bos taurus with 6 samples.

Results

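KIT and NANOS3 were followed as 2 genes of the 26961 features in single-cell RNA libraries of testis, in 29240 kept cells of 6 libraries. They were found by their symbols in the feature lists, under the identifiers ENSBGRG00000023915 (KIT) and ENSBGRG00000021964 (NANOS3). Their levels in germ cells are described first, then those in the rest of the testis, and last how often they shared a cell with ZBTB16 (ENSBGRG00000005665) and DMRT1 (ENSBGRG00000003868). The series asks how cell fates change in sequence while the yak testis develops.

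The libraries came from yak (Bos grunniens) of 6 months, called prepubertal in the labels (replicates 1 and 2), of 18 months, called adolescent (replicates 3 and 4), and of 4 years, after sexual maturity (replicate 5). The sixth came from a cattle-yak after sexual maturity, with no age given; cattle-yak are hybrids of cattle and yak, and their males are sterile. The labels name no transgene or drug, and all tissue had been frozen, thawed, digested with enzymes and kept in culture medium before loading. Nothing in the labels says that replicates are separate animals, so every p-value below measures the spread between libraries, which may be technical. The labels also name the material germ cells, whereas 3311 of the kept cells fell in germ-cell classes.

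KIT is a receptor tyrosine kinase that binds KIT ligand (KITLG), and in the testis it is known for marking spermatogonia that have left the stem-cell pool and started to differentiate. It is also made by some endothelial cells, mast cells and Leydig cells. NANOS3 is an RNA-binding zinc-finger protein that recruits the CCR4-NOT deadenylase to its target mRNAs, and it is known for keeping primordial germ cells alive and for its presence in early spermatogonia. ZBTB16 (also called PLZF) is a transcriptional repressor of undifferentiated spermatogonia, and DMRT1 is a transcription factor of spermatogonia and of Sertoli cells, the somatic nurse cells of the tubule.

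Library totals lay between 9575446 and 24762829 unique molecular identifiers (UMIs, each a counted RNA molecule), and kept cells had medians between 1467 and 2074 UMIs. Cells were grouped into 42 clusters, and a cluster was given a class name only from marker genes that excluded the 4 genes above. A class name ends in "-like" since no protein or histology stands behind it. Spermatogonium-like cells numbered 75 and 82 at 6 months, 696 and 563 at 18 months, then 215 in the 4-year yak, and 83 in the hybrid, in clusters 22, 23 and, at 4 years alone, 38. Their markers in the files (9 of the 13 listed) included UCHL1, TKTL1, ID4 and RET. Spermatocyte-like cells were found almost only at 4 years (785) and in the cattle-yak (44), and all 752 spermatid-like cells were from the 4-year library. Libraries shared between 5 and 16 cell barcodes, so they were separate.

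Levels are given in CPM, the UMIs of a gene per 1000000 UMIs of all genes in the same cells, with exact Poisson 95% intervals. Intervals here cover counting error only, and the 4-year yak and the cattle-yak are single libraries without a replicate check. In spermatogonium-like cells KIT was nearly absent at 6 months and present at all later stages. In 6 months replicate 1 there were 0 KIT UMIs among 308021, which allows up to 9.74 CPM at a floor of 3 counts. In 6 months replicate 2 there was 1 UMI, or 4.16 CPM (0.105 to 23.2).

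At 18 months the KIT level was 21.8 CPM (18.6 to 25.3, 173 UMIs) in replicate 3 and 17.2 CPM (12.8 to 22.7, 51 UMIs) in replicate 4. It was 14.8 CPM (7.87 to 25.3, 13 UMIs) at 4 years and 20.7 CPM (5.65 to 53.1, 4 UMIs) in the cattle-yak. Both KIT levels of 18 months were above both of 6 months, but the share of all genes that separate this way was not counted. The intervals of the 4 later libraries all overlapped each other. Pooled over each age, the KIT level was 11.3 times as high at 18 as at 6 months, with a counting interval of 2.00 to 447 that rests on the 1 UMI at 6 months. Both KIT levels at 6 months came from few cells, and replicate 2's upper bound reached above the level of replicate 3.

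NANOS3 was present in spermatogonium-like cells of every library. Its level was 42.2 CPM (22.5 to 72.2, 13 UMIs) in 6 months replicate 1 and 49.9 CPM (25.8 to 87.2, 12 UMIs) in replicate 2. At 18 months it was 82.5 CPM (76.3 to 89.1, 656 UMIs) in replicate 3 and 105 CPM (93.4 to 117, 310 UMIs) in replicate 4. The 4-year yak had 85.3 CPM (67.1 to 107) and the cattle-yak 114 CPM (71.5 to 173). Both libraries of 6 months were thus the lowest of the 6, though their intervals overlapped some later ones. The share of all genes that separate this way was not counted, and NANOS3 did not pass the test of age given below. The cattle-yak was not below the yaks. Of the UMIs of both genes together, KIT made up 20.9% (exact binomial 95% interval 18.2 to 23.8) and 14.1% (10.7 to 18.2) at 18 months, 14.8% (8.11 to 23.9) at 4 years and 15.4% (4.36 to 34.9) in the cattle-yak. At 6 months that share was 0% (up to 24.7) and 7.69% (0.195 to 36.03). These shares compare libraries and not the levels of the 2 genes, whose lengths were not used.

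**Figure D1:**
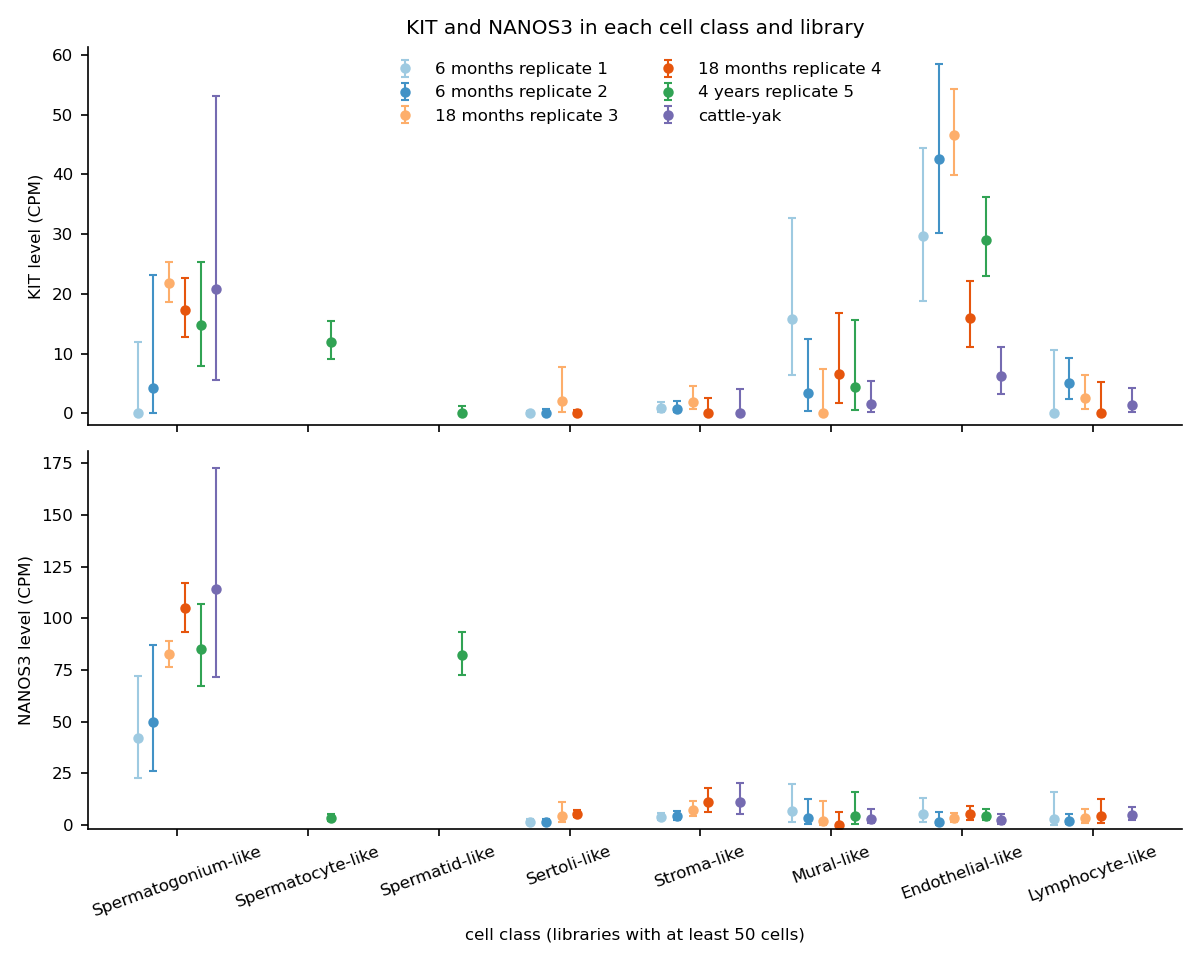
Level of KIT (top) and NANOS3 (bottom) in CPM, by cell class and library, for libraries with at least 50 cells of the class; points are levels and bars exact Poisson 95% intervals. KIT lay between 14.8 and 21.8 CPM in spermatogonium-like cells from 18 months on (0 and 4.16 CPM at 6 months), at 11.9 CPM in spermatocyte-like cells at 4 years and above 0 in endothelial-like cells of every library, and among named classes NANOS3 was highest in spermatogonium-like and spermatid-like cells.

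The age difference was tested on counts summed per library over the spermatogonium-like cells, with edgeR's quasi-likelihood test of 18 over 6 months on all 8935 genes that passed the filter on low counts. Over all genes 147 rose and 113 fell at a Benjamini-Hochberg adjusted p below 0.05, which is 2.91% of those tested (1.65% rose and 1.26% fell), and the median log2 fold change was 0.10. Scaled by library totals, which moved that median to 0.40, 466 rose and 68 fell. KIT had a log2 fold change of 3.09 ± 1.18 (SE) and did not pass (edgeR, adjusted p = 0.108, unadjusted p = 0.0086). NANOS3 had 0.76 ± 0.52 and did not pass either (edgeR, adjusted p = 0.420). Neither failure shows that the level was the same: in simulated counts of this comparison the test found 2% of 2-fold and 29.6% of 4-fold changes.

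Both partners passed. ZBTB16 was at 22.7 and 4.16 CPM at 6 months against 111 and 46.3 CPM at 18 months, a log2 fold change of 2.13 ± 0.63 (edgeR, adjusted p = 0.033). DMRT1 was at 68.2 and 95.7 CPM at 6 months against 240.5 and 347 CPM at 18 months, a log2 fold change of 1.59 ± 0.48 (edgeR, adjusted p = 0.038). The 18-month levels of both were above the 6-month levels, but the share of all genes that separate this way was not counted. At 4 years and in the cattle-yak, ZBTB16 stood at 68.2 and 93.3 CPM and DMRT1 at 197 and 384 CPM. The ZBTB16 call was lost without 6 months replicate 1, 6 months replicate 2 or 18 months replicate 3 (edgeR, adjusted p = 0.083, 0.563 and 0.333), and the DMRT1 call without 6 months replicate 1 or replicate 2 (0.458 and 0.440). With DESeq2 neither partner passed (adjusted p = 0.085 for ZBTB16 and 0.056 for DMRT1).

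Other measures moved with age in the same cells. Mitochondrial genes held 0.986% and 0.699% of their UMIs at 6 months against 7.63% and 4.91% at 18 months. The summed level of the Sertoli markers (10 of the 12 listed were in the files) was 1789 and 2787 CPM at 6 months against 794 and 1375 CPM at 18 months. Median depth per cell overlapped over the class, at 2324 and 1730 UMIs at 6 months, and 2540 and 1559 UMIs at 18 months. In cluster 23 alone it was 5671 and 4944 UMIs at 6 months against 17580 and 7599 UMIs at 18 months. The part of these differences in the fold changes of KIT, NANOS3, ZBTB16 and DMRT1 was not tested. With the mitochondrial genes left out before scaling, KIT had a log2 fold change of 3.09 and NANOS3 of 0.76. Among only the cells of cluster 23, the deeper of the clusters that hold both ages, KIT had 2.77 ± 1.22 (edgeR, adjusted p = 0.177) and NANOS3 0.54 ± 0.54 (adjusted p = 0.622).

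**Figure D2:**
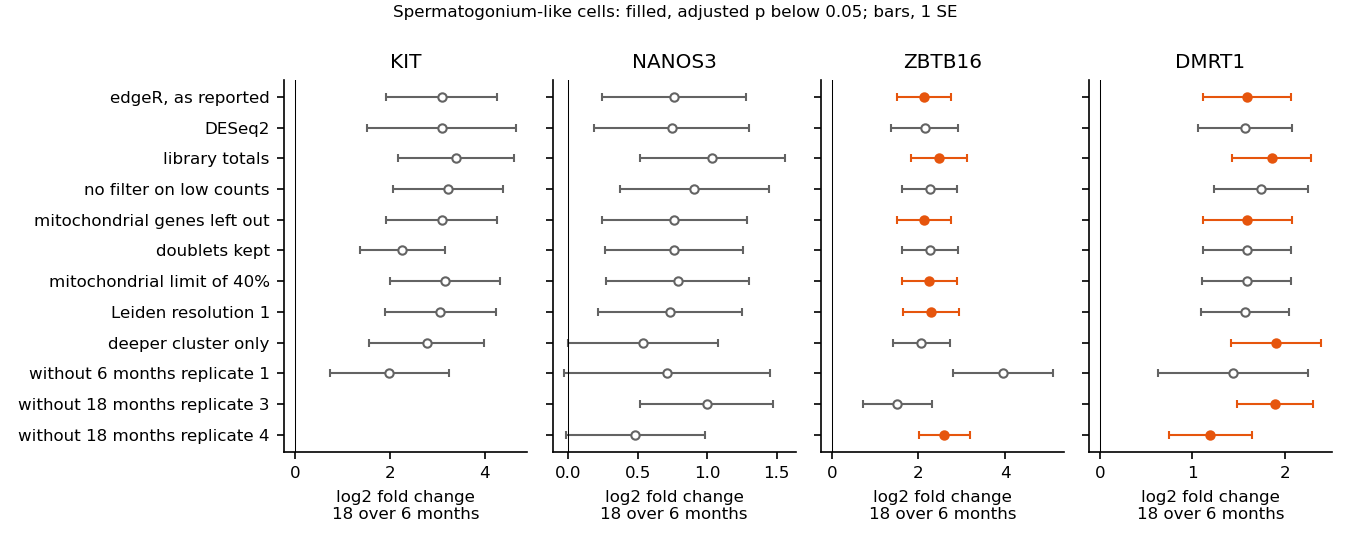
Log2 fold change of 18 over 6 months in spermatogonium-like cells for KIT, NANOS3, ZBTB16 and DMRT1 under the reported edgeR fit and 11 alternatives; bars are 1 SE and filled points passed an adjusted p of 0.05. Settings in which every 6-month library is at 0 for KIT are not drawn for any gene, and ZBTB16 and DMRT1 did not pass in them. KIT was not tested without an 18-month library, and its open point for DESeq2 had no adjusted p. KIT and NANOS3 passed in none of the settings shown, and ZBTB16 and DMRT1 in some.

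Lists of genes around both members were counted in the same fit. Of the 16 measured genes of undifferentiated spermatogonia, 14 were tested and none passed by edgeR or DESeq2; the median log2 fold change was 0.18. By edgeR 2 of the 14 had an unadjusted p below 0.05, as did 19.6% of all genes tested. The most abundant, UCHL1 (a ubiquitin hydrolase of spermatogonia), was at 2208 and 1926 CPM at 6 months against 1697 and 3851 CPM at 18 months, and MORC1, which silences transposons in germ cells, was at 260 and 166 against 190 and 89.6 CPM. Of the 10 measured genes of differentiating spermatogonia, 9 were tested, and the median was 0.79. DMRTB1, a relative of DMRT1 that acts in the mitosis-to-meiosis choice, rose from 19.5 and 12.5 to 55.7 and 106 CPM, a log2 fold change of 2.07 ± 0.61 (edgeR, adjusted p = 0.035). It was the only one of the 9 to pass by edgeR, and none passed by DESeq2. SMC1B, a meiotic cohesin, and DNMT3A, a DNA methyltransferase, were the most abundant, with log2 fold changes of 0.18 ± 0.45 and 0.79 ± 0.53.

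Of 21 measured genes of the KIT pathway, 14 were tested, and their median was -0.01. At an unadjusted edgeR p below 0.05, 2 rose and 2 fell, beside 19.6% of all genes tested. Over all 8935 genes edgeR called 2.91%, and DESeq2 called 139 genes. PTPN11, the phosphatase SHP2 that acts below KIT and other receptors, rose from 38.96 and 37.4 to 184 and 167 CPM, a log2 fold change of 1.91 ± 0.53 (edgeR, adjusted p = 0.020). The other 13 did not pass by edgeR, among them the abundant HRAS (-0.39 ± 0.45), a small GTPase that carries the signal on from the receptor. DESeq2 called PTPN11 and also PTPN6, the phosphatase SHP1, which was at 169 and 141 CPM at 6 months against 63.0 and 73.3 CPM at 18 months (log2 fold change -1.47, DESeq2 adjusted p = 0.0499, edgeR adjusted p = 0.055). PTPN6 was singled out after its values were seen. Of 15 measured genes of the NANOS and CCR4-NOT list, 12 were tested and none passed by edgeR or DESeq2, with a median of 0.04. By edgeR 2 of the 12 had an unadjusted p below 0.05, against the 19.6% of all genes. Its most abundant members, the deadenylase subunits CNOT10 and CNOT4, had log2 fold changes of 0.42 ± 0.46 and -0.11 ± 0.46. Other members of the lists, among them NANOS2, STRA8 and GRB2, were not analysed here.

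After the spermatogonial stage KIT and NANOS3 parted. This could be followed only in the 4-year yak, where a spermatocyte-like cluster with SYCP3, DMC1 and SPO11, genes of early meiosis (cluster 32, 192 cells), and a second, without those 3 (cluster 36, 593 cells), lay beside the spermatid-like cells (cluster 39). KIT was at 19.5 CPM (10.4 to 33.3) in the spermatogonium-like cluster 23, at 34.6 CPM (25.7 to 45.7) in cluster 32 and at 2.57 CPM (1.18 to 4.89) in cluster 36. In the spermatid-like cells there were 0 KIT UMIs among 752 cells, which allows up to 0.955 CPM. KIT was thus highest in the cluster of early meiosis, though its interval there overlapped that of cluster 23.

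NANOS3 was at 78.0 CPM (58.2 to 102) in cluster 23, at 5.54 CPM (2.39 to 10.9) in cluster 32 and at 2.29 CPM (0.988 to 4.51) in cluster 36. In the spermatid-like cells it was at 82.4 CPM (72.7 to 93.1), with 259 UMIs in 143 of 752 cells. NANOS3 was thus low in both meiotic clusters, and its intervals in spermatid-like and spermatogonium-like cells overlapped. ZBTB16 went from 73.5 to 15.2, 2.29 and 4.14 CPM over clusters 23, 32, 36 and 39. DMRT1 went from 192 to 283, 4.00 and 1.91 CPM and, like KIT, was still present in cluster 32.

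The spermatid-like NANOS3 was set against free RNA, the RNA of broken cells that droplets pick up. At 4 years NANOS3 stood at 4.46 CPM (2.31 to 7.79) in endothelial-like cells, with an interval well below that of the spermatid-like cells. Cells with a NANOS3 UMI made up 9.27% of spermatid-like and 0.833% of endothelial-like cells after each cell was thinned to 1000 UMIs, and 19.0% and 0.791% before thinning, at median depths of 1500 and 1364 UMIs. Per 1000 UMIs of CRISP2, a spermatid gene, there were 36.6 NANOS3 UMIs in spermatid-like, 23.9 in endothelial-like, 36.4 in mural-like, 58.8 in macrophage-like (1 NANOS3 UMI) and 5.38 in spermatocyte-like cells. The unnamed clusters 34, 40 and 41 had 37.3, 160 and 53.3, from 11, 4 and 4 NANOS3 UMIs. Free RNA from spermatids would carry their own ratio into other cells, so these ratios cannot show where NANOS3 came from. The part of free RNA in the spermatid-like level was not tested. In the yak assembly of the RefSeq table (Bosgru_T2T1.0) NANOS3 overlaps BRME1, a meiotic gene whose symbol was not found in the feature lists, and KIT overlaps a gene known only by a locus number. No source used here says whether counting used the strand, so UMIs of overlapping genes cannot be told apart and both genes' levels are uncertain to that extent.

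The third spermatogonium-like cluster, 38, held 152 of the 4-year cells and had 0 KIT UMIs (up to 14.6 CPM at the floor), with NANOS3 at 112 CPM (71.0 to 168). Its median depth was 1036 UMIs against 9434 in cluster 23 of the same yak. The name of these cells depends on the filters: with doublets kept or a 40% mitochondrial limit, 62 or 58 of the 4-year cells were spermatogonium-like in place of 215, with KIT at 21.0 or 19.6 CPM and NANOS3 at 78.0 or 69.5 CPM. In the cattle-yak, cluster 32 held 40 cells, with KIT at 16.0 CPM (5.18 to 37.2, 5 UMIs) and NANOS3 at 3.19 CPM (0.0808 to 17.8, 1 UMI). That was the same order of the 2 clusters for NANOS3 as in the 4-year yak (133 CPM in the 8 cattle-yak cells of cluster 23), and for KIT the intervals overlapped (28.5 CPM, 5.89 to 83.4, in cluster 23).

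**Figure D3:**
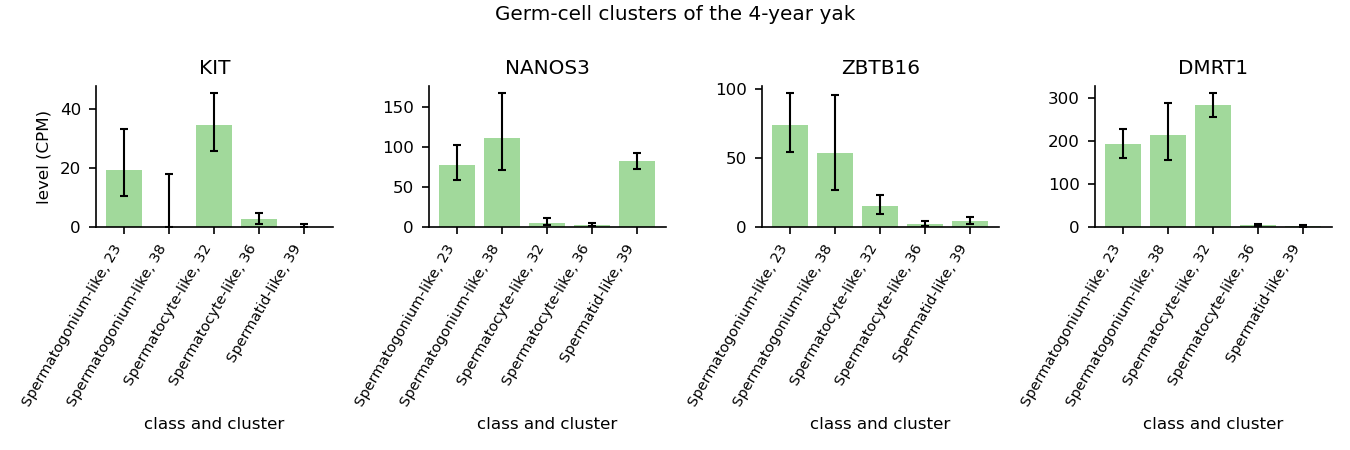
Level of KIT, NANOS3, ZBTB16 and DMRT1 in CPM in the 5 germ-cell clusters of the 4-year yak (1 library); bars are levels and lines exact Poisson 95% intervals. KIT reached 34.6 CPM in cluster 32 and was not seen in the spermatid-like cluster 39, where NANOS3 was at 82.4 CPM.

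Outside germ cells KIT had a second site, the endothelium. In endothelial-like cells it was at 29.6 CPM (18.8 to 44.5) and 42.5 CPM (30.1 to 58.4) at 6 months, and at 46.6 CPM (39.9 to 54.2) and 15.9 CPM (11.06 to 22.1) at 18 months. The 4-year yak had 29.0 CPM (22.9 to 36.2) and the cattle-yak 6.33 CPM (3.27 to 11.05). The ages overlapped, while the cattle-yak was the lowest of the 6 libraries and its interval met none of the yaks', though that of 18 months replicate 4 began where it ended (11.06 and 11.05 CPM). After thinning to 1000 UMIs per cell, 0.409% of its endothelial-like cells had a KIT UMI, against 2.86% to 4.79% in the yak libraries. The cattle-yak is 1 library, and no test of that difference was run.

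Most endothelial-like cells lay in different clusters in different libraries: cluster 16 at 6 months and in 18 months replicate 4, 18 in 18 months replicate 3, 35 at 4 years and 27 in the cattle-yak. All 4 carried CA4, a carbonic anhydrase of capillary endothelium. Within cluster 27, KIT was at 5.37 CPM (2.45 to 10.2) in the cattle-yak, at 9.42 CPM (1.94 to 27.5) in 18 months replicate 3 and at 7.28 CPM (0.184 to 40.6) in replicate 4. Within cluster 16, KIT was at 23 CPM (2.79 to 83.1, 2 UMIs) in the cattle-yak, at 26.7 and 44.1 CPM at 6 months, and at 25.2 and 16.8 CPM in replicates 3 and 4 of 18 months. Of the 573 endothelial-like cattle-yak cells, 440 were in cluster 27. Within clusters 16 and 27 the cattle-yak interval overlapped that of every yak library shown. In cluster 27 the cattle-yak had 9 KIT UMIs and 18 months replicates 3 and 4 had 3 and 1. With so few UMIs in either cluster the overlap does not show equal levels. The part of the cluster mix in the cattle-yak level was not tested. In the clusters led by CCL21 and MMRN1, genes of lymphatic endothelium, KIT was at 0 CPM (0 to 21.6, 99 cells) and 2.42 CPM (0.0612 to 13.5, 1 UMI).

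The edgeR fit on endothelial-like cells, chosen after the levels were seen, called 22 of 7194 genes between 6 and 18 months, or 0.306%. KIT had a log2 fold change of -0.36 ± 0.42 and did not pass (edgeR, adjusted p = 0.999). Without 18 months replicate 3 it was -1.10, and without replicate 4 it was 0.060. A test of whether age acted differently on KIT in spermatogonium-like and endothelial-like cells was not run.

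Mural-like cells also had KIT in 6 months replicate 1, at 15.9 CPM (6.37 to 32.7, 7 UMIs), and between 0 and 6.57 CPM in the other libraries. Over libraries with at least 50 cells of a class, KIT lay between 0 and 5.04 CPM in lymphocyte-like, 0 and 1.98 CPM in stroma-like and 0 and 2.13 CPM in Sertoli-like cells. Among 5103 Sertoli-like cells there were 2 KIT UMIs. Ordered by the median over libraries, KIT stood at 29.3 CPM in endothelial-like, 16.0 in spermatogonium-like, 11.9 in spermatocyte-like (4 years only), 3.90 in mural-like, 1.43 in lymphocyte-like and 0.711 CPM in stroma-like cells, and at 0 in Sertoli-like, macrophage-like and spermatid-like cells. The ranges of endothelial-like, spermatogonium-like and mural-like cells over libraries all overlapped. Within every library, endothelial-like cells were above mural-like cells, though some intervals overlapped. Spermatogonium-like cells were above mural-like cells except in 6 months replicate 1. They were above endothelial-like cells only in 18 months replicate 4 and the cattle-yak. No test of these orders was run. Markers of mast cells, another source of KIT, summed to between 0 and 4.16 CPM in spermatogonium-like cells, and no cluster was named for mast cells.

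NANOS3 was low in the named somatic classes. It lay between 1.40 and 5.21 CPM in Sertoli-like, 3.75 and 11.0 CPM in stroma-like, 1.12 and 5.15 CPM in endothelial-like, 0 and 6.79 CPM in mural-like and 2.02 and 4.75 CPM in lymphocyte-like cells. Macrophage-like cells ranged from 0 to 31.5 CPM, the highest resting on 3 UMIs. Every one of the 6 spermatogonium-like levels, with a median of 83.9 CPM, was above every level of these classes. After thinning, between 1.72% and 10.4% of spermatogonium-like cells had a NANOS3 UMI, against 0.124% to 1.10% of Sertoli-like cells. For KIT the thinned shares were between 0% and 2.08% against 0%, so KIT in single spermatogonium-like cells was near the limit of 1000 UMIs.

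A cell group outside the named classes also had NANOS3. Cluster 29, with 322 cattle-yak cells, had raised SOX9, INHA and CITED1, which are Sertoli markers, but was left unnamed because the Sertoli list (6 of 10 markers raised) did not lead the stroma list (4 of 8) by the set margin. NANOS3 there was at 87.3 CPM (61.2 to 121), from 36 UMIs in 30 of the 322 cells, and KIT at 0 (up to 7.28 CPM). ZBTB16 was at 4.85 and DMRT1 at 7.28 CPM. The NANOS3 interval there overlapped that of the same library's spermatogonium-like cells, while ZBTB16 and DMRT1 were far lower. It had 1385 NANOS3 UMIs per 1000 UMIs of UCHL1, against 39.4 in spermatogonium-like cells and between 121 and 500 in the named somatic classes of that library.

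By the median over libraries KITLG, the ligand of KIT, was highest in endothelial-like cells, as KIT was. By cluster they differed: in cluster 27, the highest for KITLG at 166 CPM, KIT was at 7.22 CPM. In endothelial-like cells KITLG lay between 108 and 147 CPM with a median of 137 CPM, and in mural-like cells between 54.9 and 86.8 CPM. In Sertoli-like cells, the textbook source for germ cells and a class whose marker list holds KITLG, it was at 2.77 and 6.61 CPM at 6 months against 20.3 and 13.4 CPM at 18 months. Stroma-like cells had between 1.96 and 9.87 CPM and lymphocyte-like cells between 0 and 1.90 CPM. Germ cells had little: spermatogonium-like cells lay between 0 and 4.16 CPM, spermatocyte-like cells of the 4-year yak at 1.82 and spermatid-like cells at 2.23 CPM. In macrophage-like cells there were 2 UMIs, and cluster 29 was at 26.7 CPM. Sertoli-like cells were nearly lacking in the 4-year and cattle-yak libraries, with 1 and 4 cells.

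Germ and endothelial-like cells together held most KIT UMIs from 18 months on. Endothelial-like cells held 59.0% and 69.1% of a library's KIT UMIs at 6 months, 47.6% and 38.9% at 18 months, then 51.0% in the 4-year yak, and 46.2% in the hybrid. Germ cells held 0% and 1.82% at 6 months, 49.3% and 56.7% at 18 months, then 47.1% in the 4-year yak, and 34.6% in the hybrid. Of the NANOS3 UMIs, germ cells held 22.8% and 27.9% at 6 months, 94.1% and 82.4% at 18 months, then 91.2% in the 4-year yak, and 25.6% in the hybrid. Germ cells numbered 75 and 82 at 6 months, 699 and 576 at 18 months, then 1752 in the 4-year yak, and 127 in the hybrid.

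**Figure D4:**
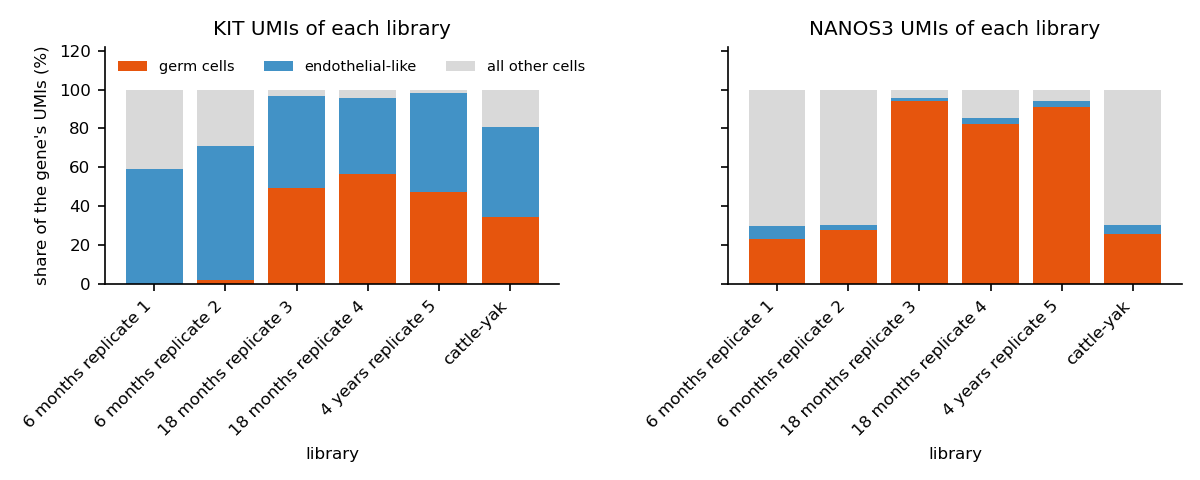
Share of each library's KIT UMIs (left) and NANOS3 UMIs (right), in percent, that lay in germ cells, in endothelial-like cells and in all other kept cells. KIT was split between germ and endothelial-like cells from 18 months on, and NANOS3 lay mostly in germ cells at 18 months and 4 years.

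In sums over whole libraries KIT was at 2.33 and 4.03 CPM at 6 months against 20.4 and 6.30 CPM at 18 months. NANOS3 was at 3.40 and 3.15 CPM at 6 months against 40.3 and 26.3 CPM at 18 months. In these sums more germ cells and more RNA per cell cannot be told apart. Of 13553 genes, edgeR called 349, or 2.58%. NANOS3 rose by a log2 fold change of 2.29 ± 0.34 (edgeR, adjusted p = 0.037), and KIT had 0.90 ± 0.48 and did not pass (adjusted p = 0.316). The NANOS3 call was lost without 6 months replicate 1, 6 months replicate 2 or 18 months replicate 3 (edgeR, adjusted p = 0.106, 0.195 and 0.107). Scaling by library totals moved the median of all genes from -0.04 to 1.03 and the calls from 252 that rose and 97 that fell to 2965 and 87, and on that scale KIT passed at 2.08 (edgeR, adjusted p = 0.045).

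Co-detection was asked next: whether spermatogonium-like cells with a partner's UMI more often had a member's UMI. Before thinning, KIT was found in 27.6% of 319 cells with DMRT1 and 7.69% of 377 without it in 18 months replicate 3, and in 16.2% of 204 and 2.23% of 359 cells in replicate 4. With ZBTB16 the KIT shares were 34.1% and 8.82% in replicate 3 and 34.9% and 3.80% in replicate 4. NANOS3 was found in 52.7% of cells with and 11.4% without DMRT1 in replicate 3, and in 40.7% and 12.0% in replicate 4. Both members were thus found more often beside the partner in both libraries of 18 months. Over libraries, the mean difference was 11.0 points for KIT with DMRT1 (higher in 5 of 6 libraries), 21.9 for KIT with ZBTB16 (4 of 4), 25.1 for NANOS3 with DMRT1 (6 of 6), 45.9 for NANOS3 with ZBTB16 (4 of 4) and 13.0 for KIT with NANOS3 (4 of 5). Each of the 5 had an adjusted p of 0.125 by exact two-sided sign-flip permutation over libraries. None could pass after adjustment over 5 pairs, since the smallest unadjusted p that this test allowed was 0.03125 to 0.125 by pair. NANOS3 with DMRT1, NANOS3 with ZBTB16 and KIT with ZBTB16 were at the smallest p their libraries allow.

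Depth moved with these shares: germ cells with a KIT UMI had a median of 18490 UMIs and those with a NANOS3 UMI 7562, against 1950 in all germ cells. The test was therefore made on cells thinned to 1000 UMIs. Cells with a partner's UMI after thinning had still been deeper before it. For DMRT1 their medians were 10230 against 8822, 4092 against 2451 and 2735 against 2609 UMIs in 18 months replicates 3 and 4 and the 4-year yak. For ZBTB16 they were 14960 against 8822 in 18 months replicate 3 and 4916 against 2552 in the 4-year yak. The part of this in the differences was not tested. At that depth the difference for NANOS3 with DMRT1 was 4.94 ± 3.53 points (SD, n = 3 libraries), positive in 3 of 3 (exact permutation p = 0.25, the smallest 3 libraries allow, adjusted p = 0.833). For NANOS3 with ZBTB16 it was 6.41 ± 5.50 points in 2 libraries (exact permutation p = 0.5, adjusted p = 0.833). KIT gave -0.74 ± 0.64 points with DMRT1 and -0.07 ± 0.78 with NANOS3, with 10, 3 and 0 KIT cells in the 3 libraries that entered. With ZBTB16, KIT gave -1.13 ± 1.60 in 2 libraries: -2.27 in 18 months replicate 3 and 0 in the 4-year yak. Since the 4-year yak had 0 KIT cells at this depth, its difference was fixed at 0 in each KIT pair. None of the 5 pairs passed (exact permutation, adjusted p between 0.833 and 1), and with 2 or 3 libraries none could.

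In the deeper cells the picture was fuller. Thinned to 10000 UMIs, NANOS3 was found in 45.8% of 155 cells with DMRT1 and 24.1% of 79 without it in 18 months replicate 3, and in 52.1% of 71 and 28.6% of 14 cells in replicate 4. The mean differences were 22.7 points for NANOS3 with DMRT1 and 16.0 with ZBTB16, and for KIT 5.29 with DMRT1, 10.3 with ZBTB16 and 5.21 with NANOS3. NANOS3 with DMRT1 was positive in every library that entered at 1000, 2000, 5000 and 10000 UMIs and unthinned. It turned negative at 1000 UMIs with coarser clusters (-3.90) and with doublets kept (-0.11). KIT with each partner changed sign with depth. No depth gave an adjusted p below 0.125 (exact permutation over 2 to 6 libraries). With so few libraries no pair could have passed at any depth, so these p-values do not show that co-detection was absent.

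**Figure D5:**
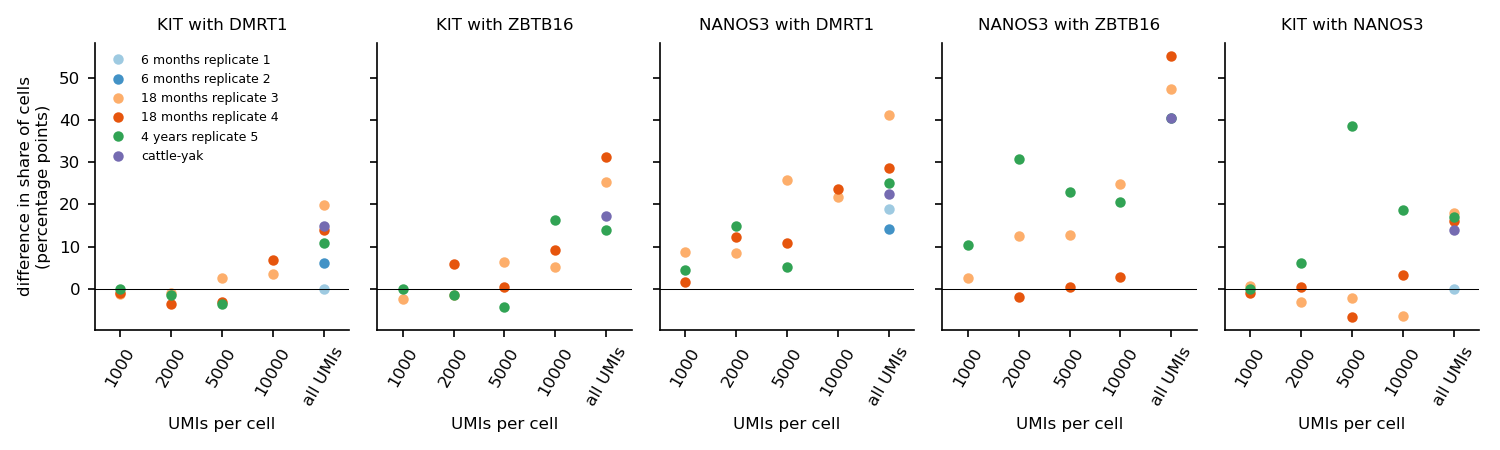
Co-detection in spermatogonium-like cells: share of cells with the first gene among cells with the second minus that among cells without it, in percentage points, per library and number of UMIs each cell was thinned to; libraries with under 10 cells on either side are left out. NANOS3 with DMRT1 was above 0 in each library shown at every depth, while KIT pairs lay on both sides of 0 once cells were thinned.

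Cell by cell, over all germ cells of the 6 libraries, 224 of 3311 had a KIT UMI. Of these, 109 also had both ZBTB16 and DMRT1, 64 had DMRT1 only, 8 had ZBTB16 only and 43 had neither, and 98 had NANOS3. NANOS3 was found in 569 germ cells, of which 193 had both partners, 109 had DMRT1 only, 24 ZBTB16 only and 243 neither. Of those 243, 158 were from the 4-year yak, whose spermatid-like cells held most of its NANOS3. KIT reached at most 5 UMIs in a cell and NANOS3 at most 26, both in 18 months replicate 3. These counts describe all stages together, and the stage of a cell sets them in part.

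Over 48 sums of a class in a library (at least 20 cells each), the genes most like KIT by Pearson's r of log2(CPM + 10), among 11108 genes, were PCDH19 (0.77), ERG (0.76), VPS36 (0.72) and IARS2 (0.71). ERG is an endothelial transcription factor and was one of the markers that named endothelial-like clusters. The 5 most like NANOS3 were TLE7 (0.82), AAGAB (0.80), CDYL (0.795), C9orf85 (0.79) and KDM1B (0.79). CDYL is a chromatin reader and KDM1B a histone demethylase. TLE7, CDYL and C9orf85 were highest in the spermatid-like cells, AAGAB in spermatogonium-like cells of the cattle-yak and KDM1B in those of 18 months replicate 3. The sums of a library share its depth and free RNA, and these values are a description.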

How the data were processed

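Per the labels' protocols the libraries are 10x Genomics single-cell RNA of testis. The values the authors deposited are raw UMI counts, from Cell Ranger (5.0.0 per the file headers, 2.1.1 per the submitters' processing notes). No source used here gives the build, and 0 of the files' identifiers for the named genes matched the RefSeq table, so no positions or sequences are printed. Cells under 300 genes or over 20% mitochondrial UMIs were left out. Of barcodes with at least 300 genes, 2.30% and 3.56% at 6 months were over the mitochondrial limit, against 38.0% and 20.3% at 18 months. The 4-year yak had 17.9% and the cattle-yak 14.1%. The part of this loss in the differences with age was not tested. Scrublet's own threshold marked between 0 and 269 barcodes per library, so doublets were removed by rank of its score at 0.8% per 1000 barcodes. Cells were clustered together in scanpy 1.11.5 (2000 variable genes, 30 components, 15 neighbours, Leiden resolution 2), with KIT, NANOS3, ZBTB16 and DMRT1 kept out of the variable genes and the markers. A cluster was named when at least 3 markers were raised 2-fold and their list led every other by a set margin. Counts summed per library and class were tested with edgeR 4.0.16 (TMM, filterByExpr, Benjamini-Hochberg) and, as an alternative, DESeq2 1.42.0. The edgeR step was tested on simulated counts with 200 changed genes among 8935: 5.39% of its calls were false. Named genes were the members, their partners, KITLG, the called and the 2 most abundant members of each list, and the 5 genes most like each member; 2 genes that this rule names are not reported here. The members and lists were chosen with earlier results of these data known.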

Additional observations from a re-analysis of the deposited data

Results flagged for a closer look

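NANOS3 in cluster 29 of the cattle-yak, cells that belong to no named class and enter no comparison, stood at 87.3 CPM (61.2 to 121). Its lower bound was above 34.1 CPM, the highest upper bound of a named somatic class with at least 50 cells in that library. The 36 UMIs lay in 30 of 322 cells, and 6.49% of 154 cells had one after thinning to 1000 UMIs, against 0% to 1.09% in the named somatic classes of that library. Groups here hold 1 or 2 libraries, so no library could be checked against its own group for standing apart.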

How the results depend on the processing

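No paired analysis was possible because the 2 ages share no replicate number. In spermatogonium-like cells, KIT (11 alternatives, log2 fold change 1.99 to 9.26, the highest with its only 6-month library at 0) and NANOS3 (14, 0.48 to 1.08) stayed positive and did not pass by edgeR or, for NANOS3, DESeq2. DESeq2 gave KIT no adjusted p, and KIT was under the filter without 18 months replicate 3 or 4. ZBTB16 kept its direction but not its call under DESeq2 (2.15), the deeper cluster only (2.06), doublets kept (2.26), a gate per cell (2.17) and no filter (2.26). DMRT1 did so under DESeq2 (1.57), Leiden resolution 1 (1.57), doublets kept (1.59), the gate (2.12), a 40% mitochondrial limit (1.59) and no filter (1.74). Leaving out a library gave 1.51 to 3.95 for ZBTB16, 1.19 to 1.93 for DMRT1, 1.99 to 9.26 for KIT, and 0.48 to 1.00 for NANOS3. The 260 calls became 139 (DESeq2), 30 (doublets kept), 70 (gate), 534 (library totals: 466 rose, 68 fell), 132 (no filter) and 16 to 988 without a library (16 and 50 without 6 months replicate 2 and 1, 70 and 988 without 18 months replicate 3 and 4). In whole libraries the 349 calls became 1361 (DESeq2), 3052 (library totals: 2965 rose), 2205 (no filter) and 0 to 2401 without a library (83 without 6 months replicate 1, 2401 without 18 months replicate 4); edgeR's 0 without 18 months replicate 3 or 6 months replicate 2 stands beside 2278 and 2095 genes at an unadjusted p under 0.05. There NANOS3 was 2.15 to 2.40 and KIT 0.39 to 1.30 without a library, and KIT passed with library totals (2.08). In endothelial-like cells the 22 calls became 91 (no filter) and 39 to 284 (48 and 39 without 6 months replicate 1 and 2, 69 and 284 without 18 months replicate 3 and 4), and KIT ranged from -1.10 to 0.060. Co-detection turned for KIT with DMRT1 unthinned (10.95), at 10000 UMIs (5.29) and at resolution 1 (1.09), for KIT with ZBTB16 unthinned (21.9) and at 2000 (1.04), 5000 (0.85) and 10000 (10.3) UMIs, for KIT with NANOS3 unthinned (13.0) and at 2000 (1.22), 5000 (9.87) and 10000 (5.21) UMIs, and for NANOS3 with DMRT1 at resolution 1 (-3.90) and with doublets kept (-0.11). Without a library, KIT with DMRT1 was -1.10 to -0.53, KIT with ZBTB16 -2.27 to 0, KIT with NANOS3 -0.44 to 0.34, NANOS3 with DMRT1 3.08 to 6.60 and NANOS3 with ZBTB16 2.52 to 10.3. Levels under the gate were 0 CPM for KIT in 6 months replicate 2 and 96.6 CPM for NANOS3 in 18 months replicate 3, outside the reported intervals; the gate left 24, 11, 212 and 104 cells in the 4 libraries. The 5000 and 10000 UMI depths, the deeper cluster and the endothelial-like fit were chosen after seeing the data. Allowing the 4 genes in the clustering changed nothing, as none was variable enough. The cause of each change was not tested. At 6 months the floor of 3 counts was 9.74 and 12.5 CPM in spermatogonium-like cells.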

Other observations

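In 6 months replicate 1, 27 cells with STAR at 1555 and CYP11A1 at 1100 CPM, genes of steroid synthesis in Leydig cells, had KIT at 47.8 CPM (13.0 to 123, 4 UMIs in 3 cells). Leydig markers in the files were 3 of the 9 listed, and the cluster stayed unnamed.

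At 4 years, the 69 cells of cluster 40 led with DEFB123, MAGEA10, CITED1, CLEC12B and SNCB, which were also among the leading genes of cluster 29 in the cattle-yak. They had NANOS3 at 66.6 CPM (18.2 to 171, 4 UMIs) and KIT at 0.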
